A study of Mus musculus with 6 samples.

Results

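Genes that regulate how many mitochondria a heart cell makes, and how these fuse and divide, were followed across ventricular libraries of ethanol-fed and control mice. The 10 genes were chosen by symbol for these roles, each matched 1 row among 55487 gene IDs in the files, and all 10 were among the 15727 genes with enough counts to be tested. The samples were left ventricles of male C57BL/6 wild-type mice, 8 weeks old and purchased from Jackson. The CONT group (3 libraries) had an isocaloric control diet for 10 days and then 1 gavage of maltose-dextrin. The ET group (3 libraries) was fed 5% ethanol over the same 10 days, followed by 1 gavage of ethanol, the NIAAA schedule of short feeding plus a binge. In both groups the heart was taken 9 h after the gavage. Whether each library is a different mouse is not in the labels. The p-values therefore cover the spread among these 6 samples, part of which may be technical.

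New mitochondria need proteins from both the nuclear and the mitochondrial genome, and the PGC-1 coactivators are the classical link between these genomes. Ppargc1a (PGC-1alpha) and Ppargc1b (PGC-1beta) bind no DNA themselves but join nuclear receptors such as Esrra and Esrrg (the estrogen-related receptors ERRalpha and ERRgamma) and the factor Nrf1 on promoters of respiratory chain genes. They also act on Tfam, which packages mitochondrial DNA and helps to start its transcription. Mitochondria then fuse through Mfn1 and Mfn2 in the outer membrane and Opa1 in the inner membrane, and divide when Dnm1l (the dynamin DRP1) tightens around them. Heart muscle is known for a dense mitochondrial content and for high levels of these factors. Nrf1 here is nuclear respiratory factor 1, not Nfe2l1, which has at times carried the same short name.

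None of the 10 genes differed between ET and CONT in the test. What stood out was the spread inside each group: Ppargc1a ranged 2.44-fold among the CONT libraries and 2.88-fold among the ET libraries in scaled counts, against a fitted difference of 1.25-fold between the groups. The same 3 libraries, CONT replicate 3 and ET replicates 2 and 3, held the higher values of 7 of the 10 genes, and the other 3 libraries the lower ones. Of all tested genes, 15.3% had this order in scaled counts, and lists of related genes had it in larger shares than that.

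All 10 are protein-coding genes in GENCODE vM21, placed on GRCm38. The coactivator genes are Ppargc1a (ENSMUSG00000029167) at chr5:51454250-51567726 and Ppargc1b (ENSMUSG00000033871), both on the minus strand. The receptor genes are Esrra (ENSMUSG00000024955) at chr19:6910977-6921813 on the minus strand and Esrrg (ENSMUSG00000026610) at chr1:187608791-188214885 on the plus strand. Tfam (ENSMUSG00000003923) lies at chr10:71225464-71238280, minus strand, and Nrf1 (ENSMUSG00000058440) at chr6:30047988-30153458, plus strand. The fusion genes are Mfn1 (ENSMUSG00000027668) at chr3:32529465-32579239 and Opa1 (ENSMUSG00000038084) at chr16:29579334-29654884, both plus, and Mfn2 (ENSMUSG00000029020) at chr4:147873599-147904704, minus. Dnm1l (ENSMUSG00000022789) lies at chr16:16312230-16358959, minus strand.

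Promoter sequences are shown because several members shared 1 pattern across libraries, and the starts of such genes can be compared. RefSeq's promoter table (GRCm38.p6, the build of the files) had 16 windows for 9 of the 10 genes, each reaching from 250 bases before to 50 bases after an annotated start, and none for Ppargc1b. The Opa1 stretch (plus strand, chr16:29579084-29579333) holds a match to the NRF-1 motif, in capitals, whose first base lies 59 bases before the start. The Tfam (minus strand, chr10:71238074-71238103) and Mfn1 (plus strand, chr3:32529426-32529455) stretches hold the motif of GABP, an Ets factor also called NRF-2, in capitals. The Ppargc1a stretch (minus strand, chr5:51567726-51567975), from the gene with the widest spread, has no match to any motif searched. All are written 5′ to 3′.
Opa1: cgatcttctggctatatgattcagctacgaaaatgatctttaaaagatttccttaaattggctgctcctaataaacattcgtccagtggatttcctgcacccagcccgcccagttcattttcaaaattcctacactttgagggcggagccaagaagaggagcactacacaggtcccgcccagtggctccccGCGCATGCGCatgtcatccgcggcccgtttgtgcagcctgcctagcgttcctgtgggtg
Tfam: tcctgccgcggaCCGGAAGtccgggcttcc
Mfn1: agatccgaagcgCCGGAAGtagccgcccct
Ppargc1a: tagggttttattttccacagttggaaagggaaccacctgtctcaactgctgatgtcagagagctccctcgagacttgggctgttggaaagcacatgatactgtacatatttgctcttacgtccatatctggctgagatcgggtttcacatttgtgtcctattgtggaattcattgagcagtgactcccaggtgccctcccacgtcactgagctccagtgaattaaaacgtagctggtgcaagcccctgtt

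Motifs were searched on both strands of the 300-base windows. The NRF-1 motif (GCGC, any 2 bases, GCGC) was in 1 of the 16 windows, that of Opa1, against 6.23% of all 32851 windows. The GABP motif CCGGAAG was in 3 windows, of Tfam, Mfn1 and Dnm1l, against 8.86%. No window held the ERR half-site AAGGTCA (4.72% of all windows), the extended ERR site TCAAGGTCA (0.423%), the cAMP response element TGACGTCA (1.79%) or the E-box CACGTG (7.15%). The 9-base ERR site contains the half-site. Ppargc1a and Esrrg had no match in their 5 windows, which says only that these letters are not in these stretches.

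The libraries held 28838386 to 37762233 expected counts, and the members' own counts ran from 170 (Ppargc1b in ET replicate 1) to 19633 (Mfn2 in ET replicate 3). All 10 cardiomyocyte markers were detected in every library, with a summed TPM of 50240 to 53020 in CONT and 37580 to 48280 in ET. ET replicate 1 stood apart: its 8 atrial markers summed to 14550 TPM, against 99.6 to 2158 in CONT and 92.1 and 499.7 in the other ET libraries, and CONT replicate 3 was second. Nppa (8200 TPM), Myl7 (3587) and Myl4 (2341) made up most of the sum in ET replicate 1, where Sln and Dkk3 were also highest. Other atrial markers differed: Bmp10 was at 24.9 TPM in CONT replicate 3 and at 0.01 or less elsewhere, with 0 in 1 library. Stk39 was highest in CONT replicate 3 (23.6 TPM), and Gpr22 was lowest in ET replicate 1 (1.13 TPM). Of the 7 tested atrial markers, 6 were higher in ET. The fibroblast markers (8 of 8 higher in ET) summed to 279.9 to 333.7 TPM in CONT and 289.2 to 1060 in ET, and the macrophage markers (8 of 8) to 96.0 to 120.3 and 103.9 to 322.4, both highest in ET replicate 1. In ET replicates 2 and 3 the sums were 398.1 and 289.2 (fibroblast) and 110.5 and 103.9 (macrophage). In TPM, ET replicate 3 lay below every control in Col1a1, Col1a2, Col3a1, Lum and Dpt, and above every control in Pdgfra, Dcn and Tcf21. Neutrophil markers (4 of 4 tested) summed to 2.39 to 14.8 TPM in CONT and 5.23 to 93.8 in ET, highest in ET replicate 3. Hepatocyte markers (5 of 5 tested) summed to 3.53 to 7.98 and 5.63 to 75.6, high in ET replicates 1 and 3. In ET replicate 1 the sum was mostly Ahsg (69.7 TPM), whereas ET replicate 3 had Alb at 22.9, Apoa2 at 15.1 and Ahsg at 12.4 TPM. Mesothelial markers (5 of 6 higher) summed to 3.15 to 12.4 and 3.68 to 95.8, highest in ET replicate 1. Erythroid markers (5 of 5 higher) summed to 124.7 to 700.0 and 386.7 to 982.8. Endothelial markers (5 of 8 lower) summed to 316.4 to 472.9 and 260.7 to 587.6, skeletal muscle markers (2 of 3 tested lower) to 104.5 to 284.9 and 19.1 to 247.0, and brown adipocyte markers (4 of 6 tested higher) to 624.8 to 976.6 and 467.4 to 909.7. Single genes made up most of the last 2 sums in every library. These were Acta1 for skeletal muscle (279.8 TPM in CONT replicate 1) and Fabp4 for brown adipocytes (951.5 TPM in CONT replicate 1). Myh1, Myh2 and Myh4 were at 0.02 TPM or less throughout. Ly6g, Fgb, Serpina1a, Myh1, Myh4, Lep, Plin1 and Ucp1 were also at 0 in some libraries. The part of these markers in the results below was not tested, and in bulk tissue fewer cells of a type and less RNA per cell cannot be told apart.

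A split of the libraries that crosses the groups bears on every result. The effective length of a gene is the mean over its transcripts, weighted by their estimated abundance, of a length corrected for the library's fragment lengths. It can therefore differ between libraries through transcript use or fragment length. The effective length was recovered from counts and FPKM for 8563 well-covered genes. Its first principal component (47.0% of the variance) had 1 sign in CONT replicates 1 and 2 and ET replicate 1, called library set 1, and the other in CONT replicate 3 and ET replicates 2 and 3, called library set 2. The labels name no batch, so the sets are known from these values only. The scores were graded: 6.83 in CONT replicate 2, 5.89 in CONT replicate 1 and 2.62 in ET replicate 1. They were -2.38 in CONT replicate 3, -5.06 in ET replicate 2 and -7.91 in ET replicate 3. Set 1 holds a single ET library and set 2 a single CONT library, the same libraries that had the most atrial marker RNA. Both lay nearest to the change of sign, and outside them the sets coincide with the groups.

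In TPM, which is per length and so can be compared between genes, the mitofusins led. Mfn1 was at 126.6 ± 22.04 TPM in CONT and 135.8 ± 30.7 in ET (SD, n = 3 here and below), and Mfn2 at 88.4 ± 28.8 and 118.5 ± 43.3. Esrra followed at 48.5 ± 4.59 and 48.7 ± 9.33, then Dnm1l at 19.1 ± 1.91 and 20.2 ± 1.51. Tfam (15.8 ± 4.07 and 16.8 ± 4.65) and Opa1 (13.1 ± 5.07 and 16.7 ± 5.24) came next. Ppargc1a was at 7.81 ± 4.37 and 10.95 ± 4.45 TPM, and Nrf1, Esrrg and Ppargc1b closed the order at means of 2.20 to 3.82 in either group. Neighbours whose ranges over the 6 libraries did not overlap were Mfn2 above Esrra, Esrra above Dnm1l, and Ppargc1a above Nrf1. All other neighbours overlapped, and the order of Nrf1 and Esrrg held in 3 of the 6 libraries only.

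**Figure D1:**
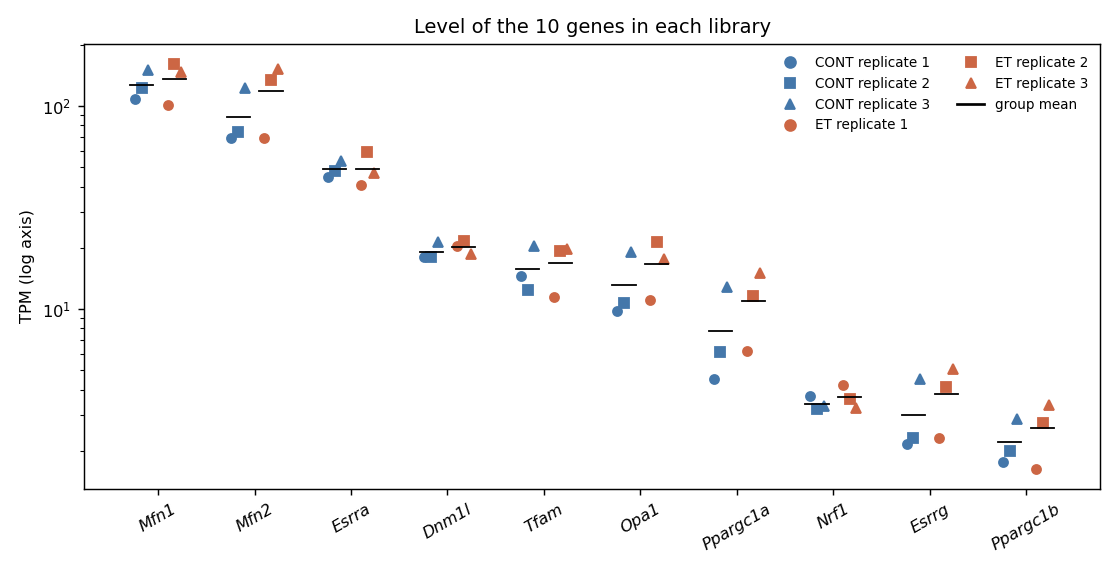
TPM of the 10 genes in each of the 6 libraries (log axis), with marker shapes for replicates 1 to 3, blue for CONT, orange for ET and black lines for group means. The groups overlap in all 10 genes, and CONT replicate 3 sits with ET replicates 2 and 3 in Ppargc1a, Esrrg, Mfn2, Opa1 and Tfam.

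For the comparison of ET with CONT, counts were scaled by library total and TMM factor to CPM and tested by edgeR's quasi-likelihood test over all 15727 genes, with Benjamini-Hochberg adjustment. At an adjusted p under 0.05, 0 of the 10 members were called, beside 0% of all tested genes. At an unadjusted p under 0.05 edgeR gave 0 members, beside 8.65% of all genes (4.19% higher in ET, 4.46% lower), and DESeq2 called 0 members beside 1.18%. The CPM ranges of the groups overlapped in all 10 members, whereas 15.2% of all tested genes had ranges that did not overlap. The fitted value was above 0 in 6 members and below 0 in 4, with a median log2 fold change of 0.12 beside 0.01 over all tested genes.

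Among the coactivators, Ppargc1a was at 31.3, 44.3 and 76.6 CPM in CONT replicates 1 to 3 and at 32.5, 64.2 and 93.4 in ET replicates 1 to 3. CONT replicate 3 lay above ET replicates 1 and 2, and ET replicate 1 was level with the lowest control. The log2 fold change of ET over CONT was 0.32 ± 0.45 (SE, 95% interval -0.74 to 1.37, adjusted p 0.822). Ppargc1b, the close relative that shares many targets, was at 6.86, 8.08 and 9.07 CPM in CONT and 4.53, 8.84 and 12.6 in ET. The ET libraries thus held both the lowest and the highest value, with all controls between them, and the log2 fold change was 0.11 ± 0.35 (-0.71 to 0.93, adjusted p 0.932). Both intervals are wide on either side of 0, and no difference was detected.

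Of the receptors, Esrra is the more abundant and stayed within a narrow range outside 1 library. It was at 98.6, 111.4 and 104.7 CPM in CONT and at 69.9, 113.6 and 99.3 in ET, where ET replicate 1 alone lay below the rest. Its log2 fold change was -0.15 ± 0.20 (-0.63 to 0.33, adjusted p 0.812). Esrrg, the receptor typical of oxidative muscle, was at 9.41, 10.96 and 20.9 CPM in CONT and 9.03, 18.2 and 24.4 in ET. Its high libraries were the same 3 as for Ppargc1a, and its log2 fold change was 0.32 ± 0.42 (-0.68 to 1.32, adjusted p 0.812). Within Esrra, 1.66% of the exon bases are shared with the opposite-strand gene Trmt112 and 2.07% with Mir6990.

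Nrf1, which binds promoters of many respiratory chain genes, had the smallest within-group SD of log2 CPM among the members, at 10.3, 9.80 and 8.04 CPM in CONT and 9.38, 9.02 and 9.01 in ET. All ET values lay inside the range of the controls, and the log2 fold change was -0.04 ± 0.15 (-0.38 to 0.30, adjusted p 0.942). Tfam was at 19.7, 22.1 and 23.1 CPM in CONT and at 13.6, 20.4 and 22.2 in ET. Again ET replicate 1 alone lay below the controls, with the other ET libraries inside their range, and the log2 fold change was -0.21 ± 0.20 (-0.67 to 0.26, adjusted p 0.744). The mitochondrially encoded genes, whose transcription Tfam helps to start, took 29.7% to 31.9% of the counts in CONT and 27.8% to 31.7% in ET, lowest in ET replicate 1.

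The fusion genes showed the 3-and-3 pattern at high counts. Mfn2, which also tethers mitochondria to the sarcoplasmic reticulum, was at 312.6, 349.6 and 473.9 CPM in CONT and 237.5, 508.6 and 638.4 in ET. Mfn1 was at 170.1, 198.1 and 224.0 CPM in CONT and 125.3, 255.1 and 278.6 in ET. In CPM, ET replicate 1 was the lowest library for both mitofusins and the other ET libraries were the highest. In TPM, Mfn2 was at 69.3 in CONT replicate 1 and 69.6 in ET replicate 1. The log2 fold changes were 0.29 ± 0.37 (-0.59 to 1.16, adjusted p 0.809) for Mfn2 and 0.15 ± 0.31 (-0.58 to 0.89, adjusted p 0.882) for Mfn1. Opa1, the inner-membrane fusion GTPase, was at 60.7, 72.2 and 98.3 CPM in CONT and 52.1, 105.1 and 95.8 in ET. Here CONT replicate 3 lay between ET replicates 2 and 3, and the log2 fold change was 0.13 ± 0.30 (-0.58 to 0.84, adjusted p 0.900).

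Dnm1l, the fission GTPase, was nearly level, at 61.3, 63.9 and 70.5 CPM in CONT and 54.9, 68.8 and 68.8 in ET. In CPM, ET replicate 1 lay below the controls and the other ET libraries inside their range. In TPM, ET replicate 1 was at 20.4, above CONT replicates 1 and 2 (18.03 and 17.96). The log2 fold change of -0.02 ± 0.15 had a 95% interval of -0.38 to 0.33 (adjusted p 0.968). Exons of Dnm1l share 4.67% of their bases with an opposite-strand gene model, Gm49521.

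**Figure D2:**
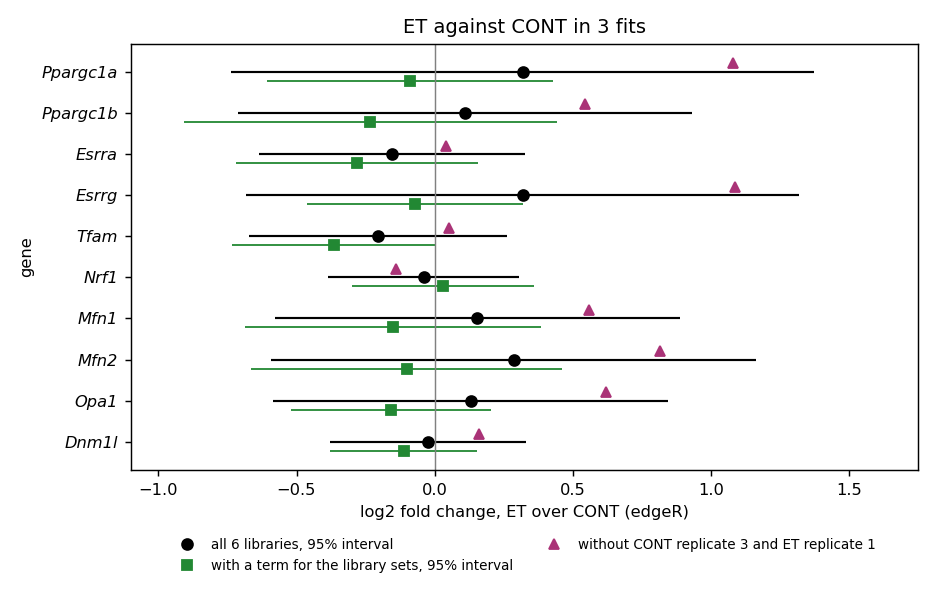
Log2 fold change of ET over CONT for the 10 genes from 3 edgeR fits: all 6 libraries (black, 95% interval), with a term for the library sets (green, 95% interval) and without CONT replicate 3 and ET replicate 1 (purple triangles). All black intervals include 0, Ppargc1a moves from 0.32 to -0.09 with the set term, and it moves to 1.08 without the 2 libraries.

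The members were then set beside the split of the libraries. In CPM, the 3 libraries of set 2 all lay above the 3 of set 1 in 7 members (Ppargc1a, Ppargc1b, Esrrg, Mfn1, Mfn2, Opa1 and Dnm1l), beside 15.3% of all tested genes. Nrf1 alone lay lower throughout set 2, which 14.1% of all genes did. In TPM 7 members were higher throughout set 2, with Tfam in the place of Dnm1l, beside 13.4% of all genes. The order was not particular to the members. In CPM it held for 11 of 20 mitophagy, 9 of 16 fission and 9 of 21 fusion genes of the lists described below. It also held for 10 of 29 partners and regulators, 8 of 25 mitochondrial DNA genes and 7 of 27 targets. Markers of some cell types differed along the same split. The 8 endothelial markers summed to 408.9 to 587.6 TPM in set 1 and 260.7 to 391.9 in set 2, though Pecam1, Cdh5, Flt1 and Vwf each overlapped. Brown adipocyte sums were also lower throughout set 2, through Fabp4 alone (789.8 to 951.5 TPM in set 1 and 441.0 to 762.4 in set 2). Cidea, Adipoq, Cfd, Plin1, Lep and Ucp1 each overlapped between the sets. The 3 tested skeletal muscle markers were on average 0.45 to 0.86 above their mean log2 CPM in set 1 and from 0.06 above to -1.22 in set 2, but their TPM sums overlapped. Sums of all other marker classes overlapped between the sets. Of the cardiomyocyte markers, Ryr2, Atp2a2, Pln and Tnnt2 were higher in TPM throughout set 2, as these members were, and the rest overlapped. Ryr2 was at 28.7 to 47.5 TPM in set 1 and 78.9 to 100.5 in set 2. Their part in the members' pattern was not tested. The sets were read from the same libraries, so these counts are a description and no test was made. The gap was wide in Ppargc1a (4.52 to 6.23 TPM in set 1 and 11.5 to 15.1 in set 2) and in Mfn2 (69.3 to 74.5 and 121.6 to 152.1). It was narrow in Esrra, where the sets overlapped (40.6 to 47.6 and 46.5 to 58.9).

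**Figure D3:**
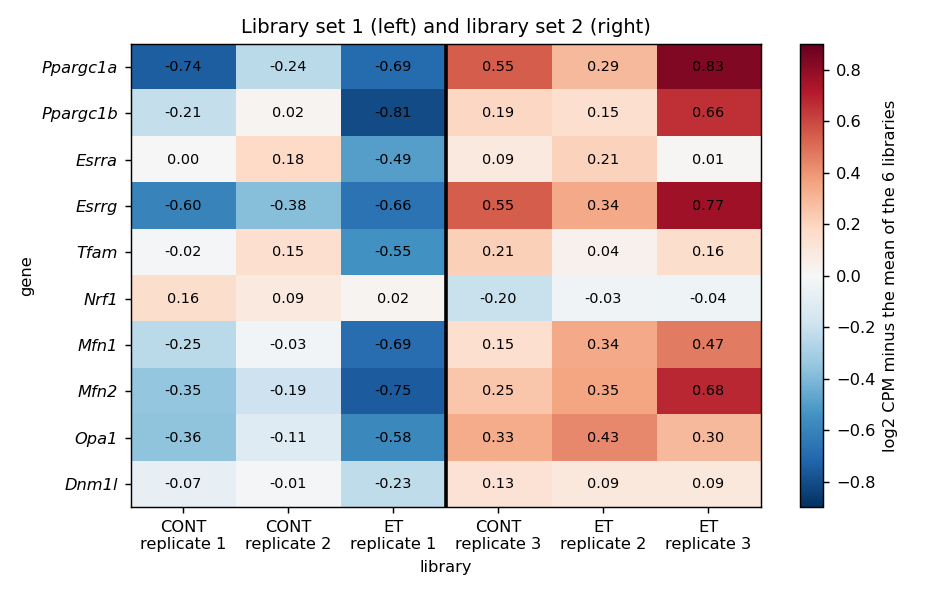
Log2 CPM of each gene minus its mean over the 6 libraries, with library set 1 on the left and set 2 on the right of the black line. Ppargc1a and Esrrg go from -0.74 and -0.66 at their lowest to 0.83 and 0.77 at their highest, while Nrf1 stays between -0.20 and 0.16.

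Within the sets, the ET to CONT difference took different signs. In set 1, ET replicate 1 was below the mean CPM of CONT replicates 1 and 2 in all 10 members, by log2 ratios from -0.10 (Nrf1) to -0.72 (Ppargc1b). The median of the same ratio was -0.02 over all tested genes and -0.90 over the cardiomyocyte markers. In TPM, ET replicate 1 was above both these controls in Ppargc1a, Esrrg, Nrf1, Opa1 and Dnm1l, and between them in Mfn2. Over all libraries, ET replicate 1 was lowest in 8 members in CPM, beside 24.3% of all tested genes. In TPM it was lowest in 4 members, beside 7.32%. In set 2, the mean CPM of ET replicates 2 and 3 against CONT replicate 3 gave 8 ratios above 0, the highest 0.28 for Mfn2, while Tfam had -0.11 and Dnm1l -0.03. Each of these ratios rests on 1 library on a side. The atrial markers had median ratios of 6.21 in set 1 and -4.20 in set 2, opposite in sign to most members in both sets. The cardiomyocyte markers had -0.90 and -0.17, so only their set 1 value shared the direction of most members. The part of these markers was not tested. With a term for the sets in the edgeR fit, the log2 fold changes of Ppargc1a, Esrrg and Mfn2 were -0.09 ± 0.22, -0.07 ± 0.16 and -0.10 ± 0.23, and 0 members were called (adjusted p 0.498 or more). The lowest of these was Tfam, at -0.36 ± 0.15 (95% interval -0.73 to 0.01).

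Leaving out CONT replicate 3 and ET replicate 1 together removed the libraries with the most atrial RNA but left groups that coincide with the sets. edgeR then called 828 genes, 5.27% of those tested (3.37% higher in ET), and 2 of the 10 members, both higher: Esrrg at a log2 fold change of 1.08 ± 0.19 (adjusted p 0.0327) and Mfn2 at 0.81 ± 0.17 (adjusted p 0.0461). Opa1 (0.62 ± 0.14, adjusted p 0.0564), Ppargc1a (1.08 ± 0.24, adjusted p 0.0614) and Mfn1 (0.56 ± 0.15, adjusted p 0.0728) did not pass edgeR's threshold. In these 4 libraries ethanol and library set cannot be told apart.

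Members also differed in how much they varied inside the groups. The SD of log2 CPM within groups was 0.71 for Ppargc1a, 0.67 for Esrrg, 0.57 for Mfn2 and 0.54 for Ppargc1b, beside a median of 0.29 over all tested genes. Of all tested genes, 89.5% had a smaller SD than Ppargc1a and 87.8% a smaller one than Esrrg. Dnm1l (0.15) and Nrf1 (0.14) were among the steadier genes, with 18.8% and 14.9% of all genes below them.

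Ratios of members within a library do not depend on its scaling, but in TPM they depend on effective lengths. The log2 difference of ET from CONT was 0.303 in TPM and 0.112 in CPM for Mfn2 to Mfn1. It was 0.278 and 0.124 for Opa1 to Dnm1l, and -0.026 and -0.201 for Tfam to Nrf1. No ratio changed sign between the units. In TPM, 6 ratios were compared by an exact two-sided permutation test. With 3 libraries against 3 this test cannot go below 0.1. The Mfn2 to Mfn1 ratio in TPM was 0.645, 0.613 and 0.807 in CONT and 0.687, 0.836 and 1.04 in ET. Its groups overlapped through CONT replicate 3 (exact permutation p = 0.2, adjusted p = 0.75 over the 6 ratios). The Opa1 to Dnm1l ratio, fusion against fission, was 0.539, 0.595 and 0.889 in CONT and 0.539, 0.993 and 0.95 in ET (exact permutation p = 0.4, adjusted 0.75). Low values came from set 1 and high ones from set 2, as for Ppargc1a to Ppargc1b (2.57 to 4.48 in CONT, 3.82 to 4.48 in ET, exact permutation p = 0.4) with ET replicate 1 between them. Esrra to Esrrg ran the other way (11.9 to 20.7 in CONT, 9.25 to 17.6 in ET, exact permutation p = 0.5). Neither Tfam to Nrf1 (exact permutation p = 0.9) nor the 3 fusion genes to Dnm1l (exact permutation p = 0.7) separated the groups, and the adjusted p of these 4 ratios ran from 0.75 to 0.9.

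The effective length, which depends on which transcripts carry the signal and on fragment length, differed between the library sets without overlap in 6 of the 10 members. The part of each was not tested. Tfam had 1244, 1567 and 1185 bases in CONT and 1444, 1139 and 1084 in ET, shorter in every library of set 2 than in any of set 1. Mfn1 ran the other way, at 1456, 1436 and 1550 bases in CONT and 1499, 1710 and 1833 in ET, and Dnm1l likewise, from 3125 to 3260 in set 1 and 3432 to 3568 in set 2. Esrrg was at 3995 and 4198 bases in CONT replicates 1 and 2 and at 4665 to 4852 in the other 4 libraries. Opa1 was at 5737 to 5951 bases in set 1 and 5227 to 5414 in set 2, and Ppargc1a at 6318 to 6376 and 5948 to 6256. Mfn2 separated by a small margin, at 4137 to 4149 and 4033 to 4078, while Esrra (2037 to 2086) did not. No member's effective length separated ET from CONT. These lengths were part of the values that defined the sets, so their order between sets is a description. They do bear on units: Tfam, with a shorter effective length in set 2, had 20.3 TPM in CONT replicate 3 against 14.5 in CONT replicate 1. This gap was wider than in CPM (23.1 against 19.7).

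**Figure D4:**
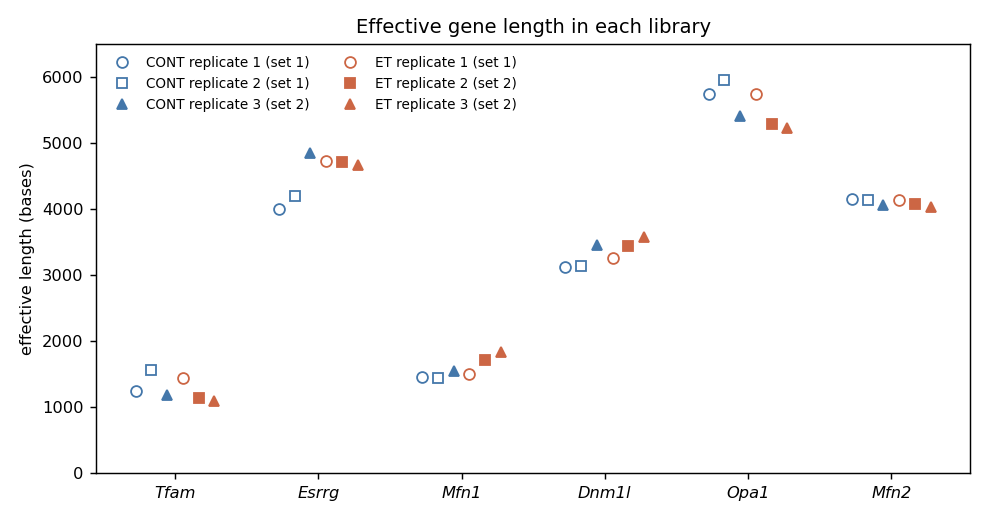
Effective gene length in bases for 6 of the genes in each library; blue is CONT, orange is ET, open symbols are library set 1 and filled symbols set 2. Tfam lies between 1244 and 1567 bases in set 1 and between 1084 and 1185 in set 2, Mfn1 is longer in set 2, and Mfn2 lies between 4033 and 4149 throughout.

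Other genes of the pathway were described by 6 lists. In none of them was a gene called by edgeR over all genes (0% of all tested genes were called), and the shares with ranges that did not overlap are to be read against 6.89% (higher in ET) and 8.36% (lower) of all tested genes. The sign of every list's median depended on single libraries, as given beside the processing alternatives. Of 29 tested partners and upstream regulators, 16 were higher and 13 lower, with a median log2 fold change of 0.07, 4 without overlap above and 3 below. Nrip1, a corepressor that opposes PGC-1 at nuclear receptors, was at 10.9, 10.96 and 15.1 CPM in CONT and 17.9, 22.1 and 18.9 in ET. Every ET library was above every control, within both sets too (0.71 and 0.44), at a log2 fold change of 0.67 ± 0.17 (edgeR adjusted p 0.478). Tfeb, the lysosomal regulator, was lower without overlap (20.9 ± 0.905 against 26.2 ± 2.18 CPM, -0.33 ± 0.12), as was the acetyltransferase gene Kat2a, which acts on PGC-1alpha (15.6 ± 1.70 against 18.8 ± 0.904 CPM, -0.26 ± 0.13).

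Of 25 genes for replication and transcription of mitochondrial DNA, 10 were higher and 15 lower (median -0.07), with 1 without overlap. That gene, the transcription elongation factor Tefm, was at 9.62, 10.4 and 8.31 CPM in CONT and 5.91, 7.61 and 8.29 in ET, where the highest ET value all but met the lowest control. Of 21 tested genes for fusion, cristae and inner-membrane processing, 9 were higher and 12 lower (median -0.07), 2 of the lower ones without overlap. Micos10, a subunit of the MICOS complex at cristae junctions, was among them at 95.4 ± 4.52 against 123.8 ± 16.0 CPM (log2 fold change -0.38 ± 0.16, edgeR adjusted p 0.572).

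The fission list had 9 of 16 tested genes higher and 7 lower (median 0.02), with 1 without overlap in each direction. Spire1, an actin nucleator that acts at fission sites, was at 4.16, 4.49 and 4.76 CPM in CONT and 6.50, 6.49 and 6.44 in ET. The ET libraries were almost equal and all above the controls, at 0.54 ± 0.15 (edgeR adjusted p 0.5004) and at 0.59 and 0.44 within the sets. Mtfp1, an inner-membrane protein that promotes fission, was lower without overlap (57.8 ± 15.4 against 82.1 ± 7.28 CPM, -0.51 ± 0.21). Of the 16 tested fission genes, 9 were higher in CPM throughout set 2, beside 15.3% of all tested genes. Spire1 and Mtfp1 were not among them.

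Of 20 mitophagy genes, which mark damaged mitochondria for removal, 15 were higher and 5 lower (median 0.14), none without overlap. The mitophagy receptor Bnip3 was at 75.3, 101.2 and 116.8 CPM in CONT and 99.7, 217.3 and 316.1 in ET. ET replicates 2 and 3 were far above the rest and ET replicate 1 among the controls, so that the log2 fold change was 1.11 ± 0.41 (edgeR adjusted p 0.534), with 0.18 in set 1 and 1.19 in set 2. An opposite-strand gene shares 22.3% of its exon bases, so its value is uncertain.

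Of 27 textbook targets of PGC-1alpha and the ERRs, 19 were lower and 8 higher, with a median of -0.16 (0.087 without ET replicate 1). Of these, 6 were lower without overlap and 1 higher. The median was -0.78 in set 1 and -0.02 in set 2, where the 10 cardiomyocyte markers had -0.90 and -0.17. Of the 27 targets, 25 had their lowest CPM in ET replicate 1, beside 24.3% of all tested genes, and 16 their lowest TPM, beside 7.32%. Cox7a1, which encodes a cytochrome c oxidase subunit of muscle, had values of 605.6, 641.6 and 382.2 CPM in CONT and 294.2, 348.2 and 338.7 in ET. Higher without overlap was Pdk4, the kinase that shuts down pyruvate oxidation, at 147.3, 219.7 and 270.6 CPM in CONT and 288.8, 1562 and 1518 in ET. Its ET replicate 1 was just above the controls and its other ET libraries several-fold higher, at a log2 fold change of 2.40 ± 0.62 (edgeR adjusted p 0.478). Vegfa, the angiogenic factor, was lower without overlap, at 145.9 ± 23.5 against 227.5 ± 37.8 CPM (-0.64 ± 0.20).

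Likeness between genes was measured as the root mean square difference of centred log2 CPM over the 6 libraries, among 12041 genes. Ppargc1a and Esrrg were each other's nearest member, at 0.089, where the median gene lay 0.64 from Ppargc1a. The nearest gene outside the 10 was for both Prkaa2, the alpha2 catalytic subunit of AMP-activated kinase, at 0.097 from Ppargc1a and 0.065 from Esrrg. Prkaa2 was at 29.5, 37.4 and 63.5 CPM in CONT and 29.5, 61.1 and 74.4 in ET, which repeats the low and high libraries of both genes. Mfn1 was nearest to Afg3l2, an inner-membrane protease subunit (0.040, 75.2 to 94.6 CPM in CONT and 53.3 to 120.0 in ET), and Opa1 to Pdlim5, a Z-disc protein (0.057). Mfn2 was nearest to Vcp-rs (0.050), whose reads may belong to its near copy Vcp. These distances describe 6 libraries, and nothing on shared control is read from them.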

How the data were processed

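RNA-seq reads of 6 ventricular libraries were processed on mm10, where the submitters' processing notes list STAR 2.7.0f (an aligner) and RSEM (1.2.31, a quantifier). Strand handling and the annotation version: not given in the sources used here. The authors deposited expected counts per gene, not normalized, in 1 table, and per library TPM and FPKM values, per the file headers. Of the nonzero expected counts, 65.7% to 67.3% were whole within 0.005, and all were rounded for the count tests.

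Genes passed edgeR's filterByExpr (minimum count 10, minimum total 15), which kept 15727. TMM factors ran from 0.920 to 1.19, the highest in ET replicate 1. The groups were compared without covariates by edgeR's quasi-likelihood test (robust, threshold 0.05). The SE is the log2 fold change over the square root of F. Effective length is expected counts over FPKM, scaled by the library total, for genes with FPKM of at least 2 and 100 counts in every library. Tools were edgeR 4.0.16, DESeq2 1.42.0 and limma 3.58.1 under R 4.3.3, and Python 3.11.15, and the tests were tried on simulated counts. Locations come from GENCODE vM21 (GRCm38, the same build as mm10).

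Replicates were numbered by accession order, so the numbers pair no samples. The members and lists were chosen with earlier results of these data known. Of each list the text names at most 3 genes, those of lowest p with a mean CPM of at least 1, and for members the nearest genes, without predicted loci. Alternatives were other scalings, filters and tools, TPM with pseudocounts of 1 and 0.1, a threshold of 0.1, each library left out, 2 left out together, and a term for the library sets.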

Additional observations from a re-analysis of the deposited data

How the results depend on the processing

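All 10 members changed direction in at least 1 of 18 alternatives, in 30 of 180 values, and the cause was not tested. With the set term the log2 fold change was -0.0895 for Ppargc1a, -0.233 for Ppargc1b, -0.0727 for Esrrg, -0.151 for Mfn1, -0.102 for Mfn2, -0.159 for Opa1 and 0.0301 for Nrf1. Leaving out each library in turn gave -0.0729 to 0.755 for Ppargc1a, -0.263 to 0.434 for Ppargc1b, -0.0216 to 0.767 for Esrrg, -0.0551 to 0.449 for Mfn1 and -0.0229 to 0.612 for Mfn2, each lowest without ET replicate 3. It gave -0.311 to 0.0368 for Esrra, -0.346 to -0.0045 for Tfam, -0.0599 to 0.396 for Opa1 and -0.0791 to 0.092 for Dnm1l, each highest without ET replicate 1, and -0.129 to 0.0384 for Nrf1. Without CONT replicate 3 and ET replicate 1 together it was 0.0422 for Esrra, 0.0524 for Tfam and 0.158 for Dnm1l. Library totals only gave 0.0727 for Nrf1 and 0.067 for Dnm1l, and limma-voom -0.0242 for Ppargc1b. On log2(TPM + 1) limma gave 0.0756 for Tfam, 0.083 for Nrf1 and 0.0754 for Dnm1l, and on log2(TPM + 0.1) 0.0789, 0.103 and 0.079. Among the fits that leave out 1 library, list medians were lowest without ET replicate 3 and highest without ET replicate 1: -0.0228 to 0.102 (partners), -0.127 to 0.0391 (mitochondrial DNA), -0.220 to 0.139 (fusion), -0.0397 to 0.207 (fission), -0.0367 to 0.271 (mitophagy) and -0.363 to 0.087 (targets). Leaving out single libraries called 0 genes in edgeR. DESeq2 called 185 genes, limma on TPM 1 (pseudocount 1) and 2 (pseudocount 0.1), and edgeR without CONT replicate 3 and ET replicate 1 called 828, with 2 members. In the other alternatives 0 members were called.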
